A study of Mus musculus with 6 samples.

Results

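The genes described here are 30 interferon-stimulated genes (ISGs) together with Ifne, which encodes interferon epsilon, an interferon made by epithelia. They were chosen as a list of names in 9 functional classes, and all 31 were found among the 14254 genes listed in the deposited data. RNA came from organoids, clusters of tumour cells grown in culture, of the mouse pancreatic ductal adenocarcinoma line KPF_5.3G, whose genotype the labels give as WT. There were 3 control libraries with the hairpin shCtrl and 3 libraries with shJag1_3, a lentiviral short hairpin RNA against Jag1, a ligand of the Notch receptors. The series asks how Jag1 bears on CD9-high tumour-initiating cells, which express epithelial and mesenchymal genes together. Both groups came from 1 line and shared 1 medium with EGF, FGF-10, gastrin, nicotinamide, N-acetylcysteine, B27, R-spondin-1 and Noggin, with no interferon and no other treatment named. The knockdown group is 1 hairpin, so an effect of Jag1 and an effect of that hairpin cannot be told apart. The submitters call the 3 samples of a group biological replicates and do not say whether they are separate cultures or separate transductions. Libraries with the same replicate number are called a pair below.

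Type I interferons bind a receptor of the chains Ifnar1 and Ifnar2, and type III interferons one of Ifnlr1 and Il10rb. Both activate the kinases Jak1 and Tyk2, which phosphorylate STAT proteins. Stat2 and Irf9 are subunits of the factor ISGF3, which binds the interferon-stimulated response element (ISRE) in ISG promoters. Type II interferon acts through Ifngr1 and Ifngr2 and leads to binding at the gamma-activated site (GAS). ISG products sense viral RNA, block translation, degrade RNA or hold back virus release, and many of them, such as Stat2, Irf7 and Irf9, feed back on the pathway. Tumour cells can express ISGs without infection, and double-stranded RNA, DNA in the cytosol and autocrine interferon are known inducers.

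Promoter sequences are shown first because the ISRE is the element that ISGF3 binds in ISG promoters. Binding was not measured here. RefSeq windows (GRCm38.p6) of 250 bases before to 50 after the transcription start were matched for 22 of the 31 genes. Dhx58, Zbp1, Oas2, Mx1, Mx2, Parp14, Rtp4, Usp18 and Ifi27l2a had no window. The ISRE was searched as GAAANNGAAA on both strands, with overlapping matches counted. At least 1 match stood in 13 of the 22 (59.1%), against 3.99% of all 27025 genes with a window (3.44% of all 32851 windows). A total of 6 genes had at least 2 matches. The GAS, searched as TTCNNNGAA, which reads the same on both strands, matched in 5 of the 22 (22.7%), against 9.55% of all genes with a window (8.30% of all windows). In Bst2 a GAS match overlapped an ISRE match. The stretches below run 5′ to 3′ on the gene's strand, lie upstream of the start and mark the ISRE matches in capitals, where TTTC opens a match on the opposite strand. Isg15 (chr4:156200859-156200928, minus strand) is shown for its 3 overlapping matches, and Ifit1 (chr19:34640769-34640828, plus strand) as the member of its family with the highest level. Ifit3 (chr19:34583363-34583432, plus strand) and Ifit3b (chr19:34607759-34607828, plus strand) are shown because they are identical in 70 of 70 bases. Oas3 (chr5:120777695-120777764, minus strand) and Cxcl10 (chr5:92349063-92349132, minus strand) have 1 match each. Ifne (chr4:88880242-88880311, minus strand) is shown as the member that departed from the others and has no ISRE match in its window. The Ifne window does hold a GAS match, at bases -32 to -24 from the start, outside the printed stretch.
Isg15: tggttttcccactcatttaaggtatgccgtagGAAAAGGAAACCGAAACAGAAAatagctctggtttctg
Ifit1: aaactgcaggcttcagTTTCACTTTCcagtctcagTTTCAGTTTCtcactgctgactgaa
Ifit3: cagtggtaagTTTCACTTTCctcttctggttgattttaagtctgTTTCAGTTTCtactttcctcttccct
Ifit3b: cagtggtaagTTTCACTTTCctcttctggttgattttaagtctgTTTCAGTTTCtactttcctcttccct
Oas3: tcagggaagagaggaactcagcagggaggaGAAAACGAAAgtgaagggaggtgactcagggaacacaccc
Cxcl10: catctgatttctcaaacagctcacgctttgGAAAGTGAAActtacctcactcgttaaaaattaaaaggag
Ifne: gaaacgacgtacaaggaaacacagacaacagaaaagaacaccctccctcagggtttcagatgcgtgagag

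The libraries held 22110664 to 35010147 reads on genes, and values are normalised counts, in which the authors scaled libraries to each other. Both libraries numbered 1 stood apart from the other 4: the deviations of control 1 from its group correlated across genes with those of knockdown 1 at r = 0.677 and with those of knockdowns 2 and 3 at r = -0.552 and -0.454. They also had the lowest mitochondrial shares of reads (0.595% and 0.555%, against 1.02% to 2.03% in the others), whose part in the results was not tested. Results are therefore also given on replicates 2 and 3 only. Jag1 stood at 412, 983 and 847 in controls 1, 2 and 3 and at 226, 321 and 557 in knockdowns 1, 2 and 3. It was lower in every pair, but control 1 lay below knockdown 3, and the difference of -1.03 (log2, SE 0.45) missed the threshold by limma (adjusted p = 0.691), by limma with the pair as a term (0.149), by edgeR with it (0.182), by DESeq2 without it (0.452) and by limma on replicates 2 and 3 (0.0703). It passed by DESeq2 with the pair as a term (adjusted p = 0.0063). Among epithelial markers, 9 of 9 were present, with a summed level of 181440 to 247573 in controls and of 243213, 617747 and 373268 in knockdowns. The keratins Krt7, Krt8, Krt18 and Krt19 had the largest values in this sum. Every marker of the list but Sox9 was highest in knockdown 2. Sox9 had 5592, 2488 and 2600 in controls and 5754, 2924 and 1464 in knockdowns. Of 14 immune markers only Cd68 was among the genes analysed, at 98.6 to 136 in controls and 117, 988 and 400 in knockdowns, and Ptprc, which marks all leukocytes, was not. Of 5 markers of plasmacytoid dendritic cells 3 were present (Bst2, itself one of the 31 genes, Tcf4 and Ly6d) and Siglech was not. Of 8 fibroblast markers 2 were (Pdgfra and Pdgfrb) and Col1a1 was not, and of 5 endothelial markers 1 was (Tek) and Pecam1 was not. The deposited data list no gene with fewer than 61 reads over the 6 libraries, so an absent marker may still be expressed at a low level. Ly6d stood at 6.23 to 8.04 in controls and at 11.5 to 41.8 in knockdowns. Its control values rest on 8, 7 and 5 reads in controls 1, 2 and 3. Ly6d passed the filter on low values used for testing through the knockdown group alone. Its groups therefore had to be separate, and these values are a description only. Tek was at 62.1 and 54.4 in control 1 and knockdown 1 and at 6.14 to 22.2 in the others. The summed fibroblast markers ran from 35.6 to 44.8 in controls and from 28.9 to 45.5 in knockdowns. Knockdown 2, the library with the highest level of most ISGs, thus also had the highest epithelial sum and Cd68, and the highest spike-in share (1.04% of reads, against 0.462% to 0.740% in the others), and their part in the results below was not tested.

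ISGs ranged more widely among libraries of 1 group than genes in general did. On the log2 scale, the 31 genes had a median range of 2.67 among the 3 controls and of 1.64 among the 3 knockdowns, against 0.62 and 0.68 over the 13997 genes tested. Their median difference between the groups was 0.82 (knockdown minus control), with a median SE of 0.75, against 0.00 over all genes. None of the 31 was called higher or lower by limma at an adjusted p of 0.05, and none of all genes was (0% called). At an unadjusted p under 0.05 stood 2 of the 31, Oasl1 and Ifne, against 7.29% of all genes. Of these, Ifne was tested only because its knockdowns were high, so its value carries no weight. RNA was measured in bulk, so a change in how many cells express a gene and a change in RNA per cell cannot be told apart.

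The controls followed 1 order for most of the set, while the knockdowns did not stand in 1 order. The median deviation of the 31 genes from their own mean over 6 libraries was 0.85, -1.67 and -0.77 (log2) in controls 1, 2 and 3. For knockdowns 1, 2 and 3 it was 0.20, 1.13 and -0.04. Control 2 was the lowest of all 6 libraries for 28 genes (17.1% of all genes), the exceptions being Mx1, Bst2 and Ifne. Control 1 was above controls 2 and 3 for 29 genes, all but Oas2 and Ifne, against 44.4% of all genes. The order control 1, control 3, control 2 from high to low held for 28, against 26.2%. Control 1 exceeded control 2 more than 3 times for 23 genes, against 6.2%. The highest library was knockdown 2 for 17 genes (18.2% of all genes), control 1 for 13 (16.8%) and knockdown 3 for Ifne (15.9%), so that a control library held the top level of 13 of the 31.

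**Figure D1:**
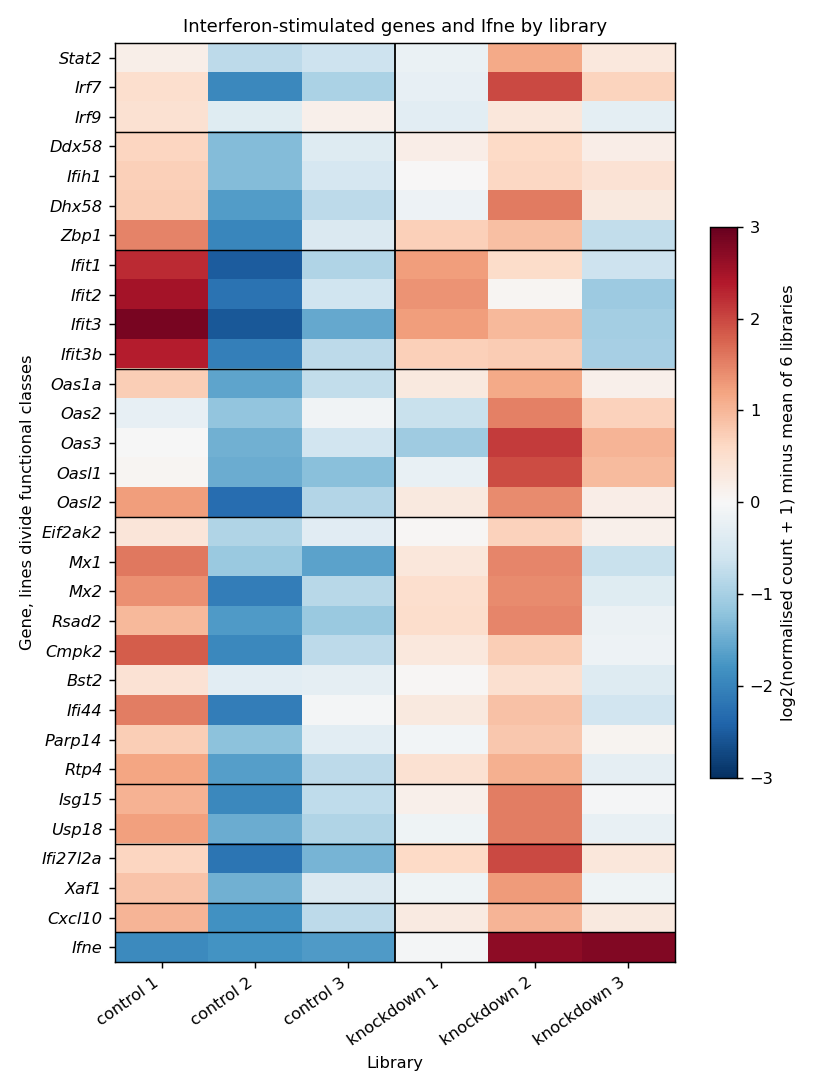
Heat map of the 31 genes (vertical axis, black lines divide functional classes) in the 6 libraries (horizontal axis), coloured by log2(normalised count + 1) minus the gene's mean over the 6 libraries, from blue (-3) to red (3). Control 2 is blue in every row, control 1 and knockdown 2 are red in most, and Ifne is deep blue in all 3 controls (-1.91 in control 1, where the lowest other gene stands at -0.24).

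Direction depended on the pair. Pairs follow the replicate numbers, and numbers 2 and 3 cannot be told from their swap by the data, so the separate values of pairs 2 and 3 depend on that choice. In pair 1, 30 of the 31 genes were lower in the knockdown than in the control (48.1% of all genes were), with a median difference of -0.78, and Ifne was higher (51.8% of all genes). In pair 2 all 31 were higher (49.4% of all genes), with a median of 2.82, and for all 31 this was the largest of the 3 differences (29.6% of all genes). In pair 3, 25 were higher (51% of all genes), with a median of 0.70, and Irf9, Zbp1, Ifit2, Ifit3b, Bst2 and Ifi44 were lower (49%). Ifne passed the filter on low values through the knockdown group alone, so it had to be higher in every pair and carries no weight in these counts. A total of 24 genes were lower in pair 1 and higher in pairs 2 and 3, against 14.2% of all genes. Across the 6 libraries the 30 ISGs moved together, with a median r of 0.87 over 435 pairs of genes (0.07 to 0.997). The genes are therefore not separate observations, and counts of genes that share a direction are a description only. The median SD of a gene's 3 pair differences was 1.88 for the set and 0.31 over all genes. Scaling by TMM left the counts of higher and lower genes in each pair as they were. Scaling by the spike-in RNAs, which moved the median of all genes to -0.18 over the groups and to -0.52, -0.68 and 0.68 in pairs 1, 2 and 3, left 30 lower in pair 1, where 91.1% of all genes were then lower, and 31 higher in pair 2, where 16.9% of all genes were then higher. It turned the 6 lower genes of pair 3, so that all 31 were higher there (87.2% of all genes were).

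Without regard to pairing, both knockdowns 2 and 3 lay above both controls 2 and 3 for 25 of the 31 genes, against 29.8% of all genes. With spike-in scaling this held for 30, against 13.9%. The 25 include Ifne, for which this had to hold, as it passed the filter on low values through its knockdowns alone. They also include Ifi27l2a and Mx1, whose controls 2 and 3 lay below that filter. These genes carry no weight in the count. With these 4 libraries only, limma called 9 of the 31 higher and none lower: Stat2, Irf7, Ifih1, Dhx58, Oas3, Oasl1, Ifi27l2a, Cxcl10 and Ifne (6.04% of all genes were called higher and 3.57% lower). Of these, Ifne in all controls, and Ifi27l2a in controls 2 and 3, lay below the filter of 10 normalised counts. They were tested because the other libraries were high, so their calls carry no weight, here or in the fits below. The median difference of the 31 was then 1.75. With all 6 libraries, limma with the pair as a term called none of the 31 (0.0143% of all genes called higher), and edgeR called none with that term (0.0143%) or without it (0%). DESeq2 called Ifne alone, higher, with the term (4.54% of all genes called higher, 2.6% lower) and without it (0.722% higher, 0.522% lower). DESeq2 with the pair term called 14 of the 31 once pair 1 was left out (9.24% of all genes called higher), and none once pair 2 (0.464%) or pair 3 (0.636%) was.

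**Figure D2:**
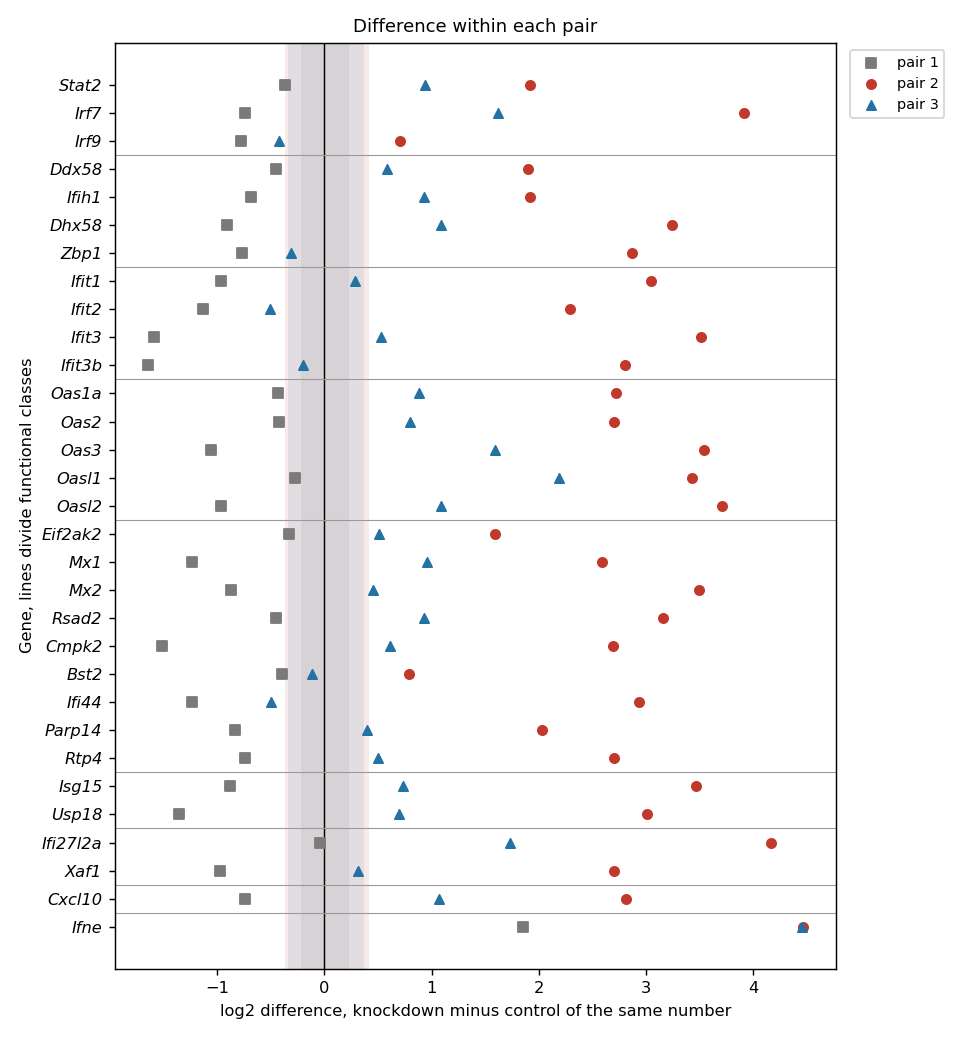
Log2 difference of knockdown minus control (horizontal axis) for each of the 31 genes (vertical axis, grey lines divide functional classes) in pair 1 (grey squares), pair 2 (red circles) and pair 3 (blue triangles), with shaded bands for the middle 50% of all genes in each pair. Pair 1 lies left of 0 for 30 genes and pair 2 right of 0 for 31, and Ifne is the only gene with all 3 points right of 0.

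Of the 3 transcription factors, Irf7 varied most between libraries and Irf9 least. Irf7, which drives transcription of interferon genes and amplifies the response, stood at 2785, 513 and 1012 in controls 1, 2 and 3 and at 1663, 7772 and 3114 in knockdowns 1, 2 and 3. It was 15.1-fold higher in knockdown 2 than in control 2, 3.08-fold higher in pair 3 and at 0.597 of its control in pair 1, so that control 1 lay above knockdown 1 and the groups overlapped. Its group difference was 1.60 (log2, SE 0.75, limma adjusted p = 0.701), and 2.77 (SE 0.50, adjusted p = 0.029) on replicates 2 and 3. Stat2, the ISGF3 subunit with the activation domain, went the same way at a smaller size, with 1323, 679 and 760 in controls and 1024, 2573 and 1453 in knockdowns. On replicates 2 and 3 its difference was 1.43 (SE 0.29, limma adjusted p = 0.0371). Irf9, the subunit that reads the ISRE, had the narrowest range of the class, from 938 in control 2 to 1663 in control 1, and stood at 970, 1527 and 984 in knockdowns. It was lower in pairs 1 and 3 and higher in pair 2 only, and differed by -0.17 (SE 0.29) between the groups. Exons of Irf7 share 45 bases with Phrf1 on the opposite strand, and those of Irf9 share 123 with Rnf31 on the same strand. The libraries do not mark strand, so such reads cannot be assigned.

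All 4 sensors were lower in pair 1 and higher in pair 2, with class medians of -0.73, 2.40 and 0.76 in pairs 1, 2 and 3. Dhx58 (LGP2), a regulator of the RNA sensors, had 809, 150 and 279 in controls and 432, 1430 and 594 in knockdowns. Ifih1 (MDA5), a sensor of long double-stranded RNA, had 1252, 314 and 543 in controls and 778, 1191 and 1037 in knockdowns, so that control 1 exceeded every knockdown. On replicates 2 and 3 both passed the threshold by limma, Dhx58 with 2.16 (SE 0.48, adjusted p = 0.0485) and Ifih1 with 1.43 (SE 0.29, adjusted p = 0.0376). Ddx58 (RIG-I), a sensor of RNA ends, was 3.74-fold higher in pair 2 and 1.5-fold higher in pair 3. Its difference of 1.24 on replicates 2 and 3 missed the threshold by limma (adjusted p = 0.0709), while DESeq2 with the pair term called Ddx58 higher there. Zbp1, a sensor of Z-form nucleic acid linked to necroptosis, was the sparsest of the class, with 262, 23 and 68.5 in controls and 153, 174 and 55 in knockdowns. Its highest level was in control 1, and it was lower in pair 3 as well as pair 1.

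IFIT genes, which encode RNA-binding proteins that block translation of viral RNA, varied most among the controls. Ifit1 stood at 882, 32.2 and 99.7 in controls 1, 2 and 3, a 27.4-fold gap between controls 1 and 2, and at 450, 273 and 121 in knockdowns. Ifit3 had 282, 5.74 and 12.5 in controls, a 49.1-fold gap between the first 2, and 93, 76.2 and 18.3 in knockdowns. Ifit2 followed with 176, 5.74 and 19.9 in controls and 79.8, 31.9 and 13.8 in knockdowns. The control 2 values of Ifit2 and Ifit3 rest on 5 reads each, so the size of the 49.1-fold gap is uncertain. Control 1 was the highest library for each of Ifit1, Ifit2, Ifit3 and Ifit3b, and knockdown 1 came second for the first 3. The class medians were -1.36, 2.93 and 0.04 in pairs 1, 2 and 3, so pair 3 was near 0 where pairs 1 and 2 were far from it in opposite directions. Group differences ran from 0.22 (Ifit2) to 0.82 (Ifit3) with SEs of 1.14 to 1.42, and Ifit1, Ifit2, Ifit3 and Ifit3b were lower in the knockdown group by edgeR and DESeq2, both without the pair term. On replicates 2 and 3 limma called none of the 4 (adjusted p from 0.152 to 0.47), while DESeq2 with the pair term called Ifit1 higher there. Transcripts of Ifit3 and Ifit3b were 98% identical over 1697 aligned bases, so the authors' counting could split reads between them and their separate levels are uncertain. They lie close together on chromosome 19 (GRCm38, Ifit3 at chr19:34583531-34588731 and Ifit3b at chr19:34607970-34613401), with the identical upstream stretches printed above.

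OAS genes encode synthetases whose oligoadenylate product activates RNase L. All 5 were lower in pair 1, higher in pair 2 and higher in pair 3, with class medians of -0.44, 3.43 and 1.09. Oasl1, a member without synthetase activity that restrains translation of Irf7, had 1180, 407 and 476 in controls and 976, 4384 and 2180 in knockdowns. Its pair 1 difference of -0.27 was small, and its group difference was 1.78 (SE 0.62, limma adjusted p = 0.643), or 2.81 (SE 0.33, adjusted p = 0.0108) on replicates 2 and 3. Oas3, which responds to long double-stranded RNA, stood at 1408, 524 and 957 in controls and at 675, 6105 and 2878 in knockdowns. It was at 0.479 of its control in pair 1, 11.7-fold higher in pair 2 and 3.01-fold higher in pair 3, with 2.56 (SE 0.43, limma adjusted p = 0.024) on replicates 2 and 3. Oas2 had 2089, 1080 and 2275 in controls and 1556, 7037 and 3957 in knockdowns, and was the only ISG of the set with its highest control level in control 3. Oasl2 (2814, 240 and 642 in controls, 1437, 3152 and 1365 in knockdowns) and Oas1a (1811, 363 and 650 in controls, 1337, 2401 and 1202 in knockdowns) had more in control 1 than in knockdowns 1 and 3. On replicates 2 and 3 Oas1a, Oas2 and Oasl2 missed the threshold (limma adjusted p = 0.0502, 0.0562 and 0.0544). Oas1a transcripts were 97.5% identical to those of Oas1g, so its level is uncertain in the same way as that of Ifit3.

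The other antiviral effectors, 9 genes, were all lower in pair 1 and higher in pair 2, and 7 were higher in pair 3. Rsad2 (viperin), which makes a chain-terminating nucleotide, had 877, 137 and 204 in controls and 640, 1231 and 390 in knockdowns. Cmpk2, its neighbour on chromosome 12 and a mitochondrial nucleotide kinase, had 1152, 83.8 and 189 in controls and 403, 547 and 290 in knockdowns. The neighbours were highest in different libraries, Rsad2 in knockdown 2 and Cmpk2 in control 1. The GTPase genes Mx1 and Mx2 were low: Mx1 had 65.5, 9.19 and 6.23 in controls and 27.2, 60.2 and 13 in knockdowns, while Mx2 ran from 16.1 in control 2 to 192 in knockdown 2. Mx1 was the only effector lowest in control 3. Bst2 (tetherin), which holds budding virions on the cell surface, had the highest level of the set per length, with a mean of 5144 normalised counts per kilobase over 6 libraries, against 1548 for Isg15 and 7.98 for Mx1, the lowest. Bst2 also varied little, with 6086, 3630 and 3768 in controls and 4620, 6293 and 3473 in knockdowns, and a group difference of 0.09 (SE 0.30), which turned to -0.09 with spike-in scaling. Its pair 2 ratio was 1.73, against 6.52 for Cmpk2 and 9.01 for Rsad2. Eif2ak2 (PKR, which halts translation on double-stranded RNA), Parp14 (an ADP-ribosyltransferase), Rtp4 and Ifi44 had pair 2 differences of 1.59, 2.03, 2.70 and 2.94, and limma called none of the 9 effectors on replicates 2 and 3, while DESeq2 with the pair term called Eif2ak2, Mx2 and Cmpk2 there. Exons of Eif2ak2 share 174 bases with Gm26637 and those of Rtp4 share 296 with Gm45338, so part of their reads is uncertain.

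Isg15, a ubiquitin-like protein joined to other proteins, stood at 1830, 232 and 521 in controls and at 990, 2584 and 865 in knockdowns. Its group means were 861 ± 852 and 1480 ± 958 (SD, n = 3), and its difference of 1.11 (SE 0.78) did not pass (limma adjusted p = 0.812), nor did the 2.10 on replicates 2 and 3 (adjusted p = 0.0845). Control 1 held 7.89 times the Isg15 of control 2. Usp18, the protease that removes Isg15 and dampens the type I receptor, had 637, 96.5 and 145 in controls and 248, 785 and 235 in knockdowns, the same order of controls. Ifi27l2a, a mitochondrial protein, was scarce in controls 2 and 3 (4.59 and 8.72, with 38.9 in control 1) and had 37.7, 99.5 and 31.3 in knockdowns. Its difference was 1.95 (SE 0.82) over all libraries and 2.95 (SE 0.65, limma adjusted p = 0.0472) on replicates 2 and 3. It passed the filter on low values in 1 control and all 3 knockdowns. Xaf1, an antagonist of the apoptosis inhibitor XIAP, had 1906, 389 and 779 in controls and 967, 2545 and 964 in knockdowns. Cxcl10, a chemokine for CXCR3-bearing lymphocytes, had 492, 68.9 and 142 in controls and 293, 492 and 300 in knockdowns, with control 1 and knockdown 2 level. On replicates 2 and 3 it differed by 1.94 (SE 0.42, limma adjusted p = 0.0455).

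**Figure D3:**
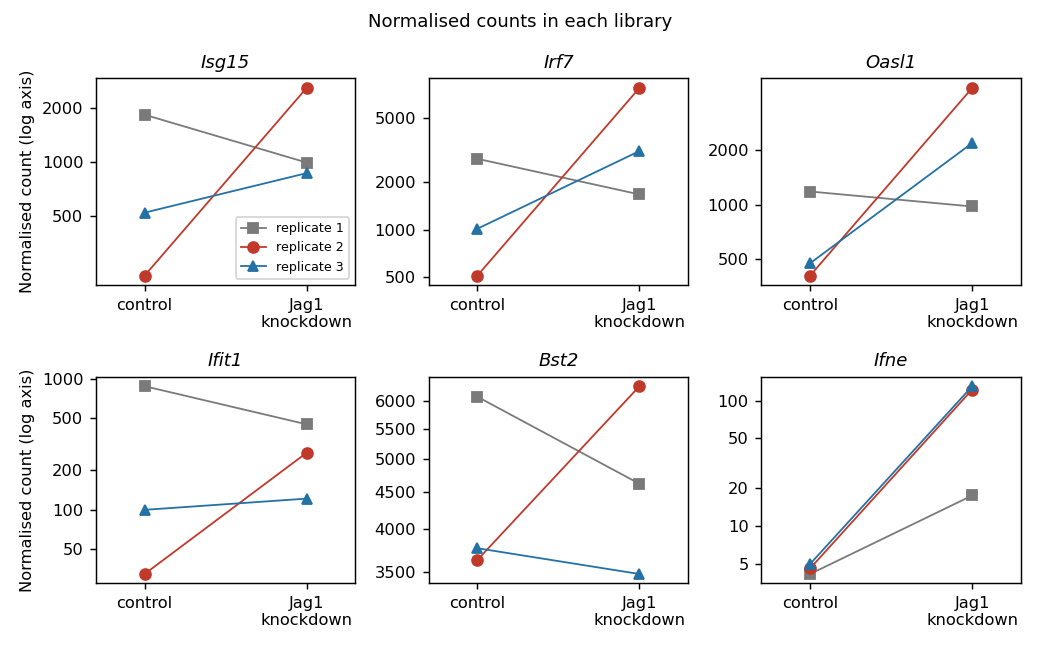
Normalised counts (vertical axis, log scale, a range of its own in each panel) of Isg15, Irf7, Oasl1, Ifit1, Bst2 and Ifne in the 3 controls and 3 Jag1 knockdowns, with a line joining libraries of the same replicate number. Replicate 1 (grey squares) slopes down and replicate 2 (red circles) up in the 5 ISG panels, whereas all 3 lines slope up for Ifne.

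Ifne stood at 4.14, 4.59 and 4.98 in controls 1, 2 and 3 and at 17.5, 123 and 131 in knockdowns 1, 2 and 3. The groups did not overlap, the only case in the set, against 6.29% of all genes with knockdowns above controls and 5.44% below. No other gene of the 31 was higher in every pair (22.3% of all genes). Ifne was higher by 4.23-fold, 26.7-fold and 26.2-fold in pairs 1, 2 and 3. The control values rest on 5, 4 and 4 reads and the knockdown values on 20, 100 and 171 reads. Ifne passed the filter on low values through the knockdown group alone, so its groups had to be separate and every pair had to be higher, and these counts are a description only. Its difference was 3.59 (SE 0.79), which missed the threshold by limma (adjusted p = 0.604) and by limma with the pair as a term (adjusted p = 0.145). It passed by DESeq2 without that term (adjusted p = 0.000408) and with it, at 3.89 (SE 0.76, adjusted p = 4.33e-05). It also passed by limma on replicates 2 and 3 (4.46, adjusted p = 0.00581) and by limma with spike-in scaling (0.569% of all genes called higher). Because Ifne was tested through its knockdowns alone, these calls carry no weight. The 664 exonic bases of Ifne lie at chr4:88879538-88880201 on the minus strand (GRCm38) and overlap no exon of another annotated gene. Per kilobase its mean over 6 libraries was 71.5 normalised counts, 24th from the top among the 31. The group means were 4.57 ± 0.421 and 90.4 ± 63.2 (SD, n = 3).

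Other interferon genes were looked for by a list of 9 names (Ifnb1, 4 Ifna genes, Ifnk, Ifng, Ifnl2 and Ifnl3), and none was among the genes analysed here. A list of 87 other pathway genes could be tested. Limma called none of them with all 6 libraries, with or without the pair as a term. DESeq2 with that term called 5: Ifnlr1, Lgals9 and Isg20 higher (3.45% of the 87, against 4.54% of all genes) and Ifitm1 and Ifitm3 lower (2.30%, against 2.6%). These shares are no higher than those of all genes. On replicates 2 and 3 limma called 10 higher (11.5%, against 6.04% of all genes) and 2 lower (2.30%, against 3.57%).

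Receptor chains did not follow the ISGs. The 6 chains had pair medians of 0.18, -0.12 and -0.28, against -0.78, 2.82 and 0.70 for the 31 genes. Ifnlr1, the ligand-specific chain of the type III receptor, had 189, 340 and 267 in controls and 295, 978 and 909 in knockdowns. It was higher by 1.56-fold, 2.88-fold and 3.41-fold in pairs 1, 2 and 3, and only knockdown 1, which lay below control 2, kept the groups from separating. Its difference was 1.31 (SE 0.50, limma adjusted p = 0.668), which passed by DESeq2 with the pair as a term (SE 0.29, adjusted p = 0.00052) and by limma on replicates 2 and 3 (1.64, adjusted p = 0.0111). Il10rb, the second chain of that receptor, was lower in every pair, with 828, 1422 and 1486 in controls and 694, 903 and 858 in knockdowns. Its -0.57 (SE 0.27) passed on replicates 2 and 3 only, at -0.72 (limma adjusted p = 0.0395). The type I receptor chains Ifnar1 (1724, 2351 and 2721 in controls, 1551, 2057 and 1867 in knockdowns) and Ifnar2 (882, 1441 and 1516, then 988, 1071 and 780) differed by -0.30 and -0.41 and were not called by limma with all libraries or on replicates 2 and 3. DESeq2 with the pair term and pair 1 left out called Ifnar2 lower. Control 2, which held the least of 28 of the 31 genes, was not the lowest library for either chain. Of the type II receptor, Ifngr2 was higher in every knockdown than in any control (3328 to 4295 against 2352 to 2912). Among the 87 pathway genes 4 separated in this way (4.60%), a share below the 6.29% of all genes. Ifngr2 differed by 0.51 (SE 0.18, limma adjusted p = 0.643) and Ifngr1 by 0.05 (SE 0.20).

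**Figure D4:**
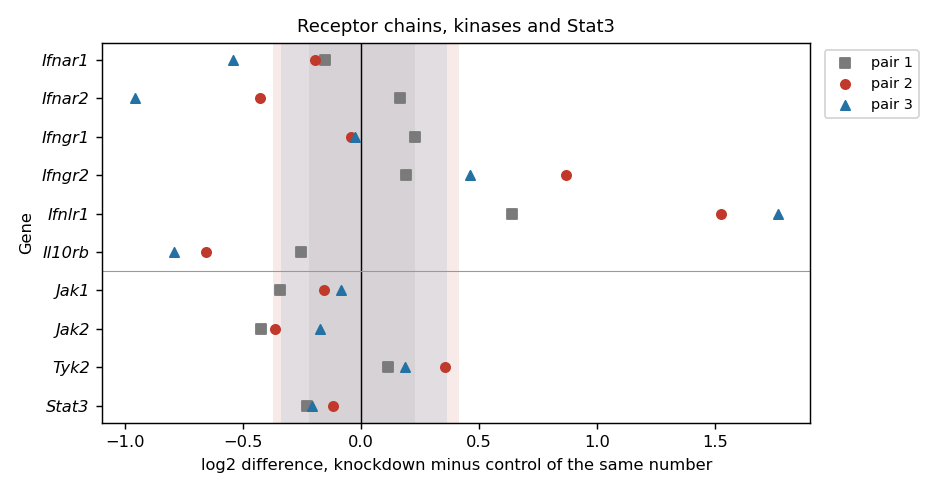
Log2 difference of knockdown minus control (horizontal axis) for the 6 interferon receptor chains, Jak1, Jak2, Tyk2 and Stat3 (vertical axis) in pair 1 (grey squares), pair 2 (red circles) and pair 3 (blue triangles), with shaded bands for the middle 50% of all genes in each pair. Ifnlr1 is right of 0 in all 3 pairs and Il10rb left of 0 in all 3.

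Downstream of the receptors, the kinases Jak1, Jak2 and Tyk2 and Stat3 differed by -0.32 to 0.22 between the groups, and the widest pair difference among them was -0.42, of Jak2 in pair 1. Among genes of sensing and induction, the highest means belonged to Trim25, the ubiquitin ligase that activates RIG-I, and Tmem173 (STING), the adaptor of cytosolic DNA sensing. Trim25 had 4577, 3902 and 4836 in controls and 3784, 8670 and 7612 in knockdowns, and passed on replicates 2 and 3 (0.90, limma adjusted p = 0.0305). Tmem173 had 2888, 6343 and 8776 in controls and 3180, 4704 and 2473 in knockdowns, with its lowest control level in control 1, and did not pass. Adar, which edits double-stranded RNA and restrains sensing, differed by 0.36, and Irf2bp1, a corepressor, by -0.05.

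Of a further 55 ISGs outside the 31, 49 were lower in pair 1 (48.1% of all genes), 50 higher in pair 2 (49.4%) and 35 higher in pair 3 (51%), with medians of -0.46, 1.44 and 0.24. Ifitm1, Ifitm2 and Ifitm3, interferon-inducible membrane proteins that block virus entry, were lower in every pair, Ifitm2 by -0.10, -0.12 and -0.79. Ifitm1 had 15262, 8456 and 9318 in controls and 12904, 2129 and 2302 in knockdowns, with -1.43 (SE 0.34, adjusted p = 0.00157) by DESeq2 with the pair as a term and a call on replicates 2 and 3 by limma as well (adjusted p = 0.00489). Ifitm3 had 9113, 3544 and 4514 in controls and 6213, 2626 and 2072 in knockdowns, called by DESeq2 with the pair term (-0.70, SE 0.21, adjusted p = 0.0162) and missed by limma on replicates 2 and 3 (adjusted p = 0.0623). Lgals9 (galectin-9), with 6956, 1635 and 2048 in controls and 6566, 6823 and 4798 in knockdowns, and Isg20, an RNA exonuclease, with 1521, 1504 and 1092 in controls and 1633, 4503 and 2505 in knockdowns, were called higher by DESeq2 with the pair term (adjusted p = 0.0389 and 0.0227). Limma called none of these 4 without the term (adjusted p from 0.668 to 0.814) or with it (0.153 to 0.218).

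Genes with and without an ISRE match had similar pair medians, which were not tested against each other. The 13 genes with an ISRE match in their window had pair medians of -0.69, 2.80 and 0.73, the 9 with a window and no match -0.97, 2.94 and 0.61, and the 9 without a window -0.83, 2.87 and 0.70. Irf7, with the highest pair 2 difference of the ISGs after Ifi27l2a, had no match of these letters in its window, and Bst2, with the lowest after Irf9, had 2.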

How the data were processed

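RNA-seq libraries were made from total RNA with the TruSeq RNA v2 kit named in the labels' protocols, a kit without strand marking. The submitters' processing notes name Trimmomatic, STAR 2.5.2b, DESeq2 1.32.0 and GRCm38, and the counting tool and annotation are not given in the sources used here. The deposited normalised counts are a signal in which the authors divided read counts by 1 size factor per library: 100% of the values were whole multiples of 1 step within 0.001 of a read, so the reads could be recovered. The 6 deposited tables were identical and 1 was used, with 14254 genes and 48 spike-in RNAs. Symbols and positions came from GENCODE, of GRCm38.

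Groups came from sample titles. The test was limma-trend (limma 3.58.1, R 4.3.3) on log2(normalised count + 1), knockdown minus control, for the 13997 genes with at least 10 normalised counts in at least 3 libraries, with Benjamini-Hochberg adjustment over all of them and a threshold of 0.05. All 31 genes passed this filter. A fold change on this scale understates the change of low genes. Count tests on the recovered reads (edgeR 4.0.16, DESeq2 1.42.0) were alternatives, and called 0 genes (edgeR) and 101 higher and 73 lower (DESeq2). Other alternatives were the pair as a term, pseudocounts of 0.5 and 5, no filter and one at 50, scaling by spike-ins or TMM, and libraries left out. Scripts were tested on simulated data.

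Libraries with the same number deviated together from their group means (r = 0.677, 0.568 and 0.443 across genes for numbers 1, 2 and 3) and were treated as pairs. No label states what the numbers mean. The crossed combinations of pairs 2 and 3 also had positive correlations (r = 0.385 for control 3 and knockdown 2, and r = 0.365 for control 2 and knockdown 3). P-values measure the spread between these samples, which may be technical. The genes and lists were chosen with earlier results of these data known. Every member is named, then each receptor chain, kinase and STAT, and of the other pathway classes the genes called with the pair term, up to 4 in each direction, or else the 2 with the highest mean. A gene that this rule takes is not reported here.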

Additional observations from a re-analysis of the deposited data

How the results depend on the processing

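The 31 genes and 20 others gave 962 values that kept their direction and side of the threshold, 54 that turned and 50 that newly passed it. Limma called 0 of the 31, also with the replicate block (0), with pseudocounts of 0.5 and 5, without a filter, with TMM and with each library left out in turn (0 to 0). Spike-in scaling called 1, DESeq2 1 and DESeq2 with the block 1, in each case Ifne, whose calls carry no weight. Replicates 2 and 3 only gave 9, and DESeq2 with the block and pair 1 left out 14, both with Ifne and Ifi27l2a among them. The 87 other genes gave 0, then 5 by DESeq2 with the block and 12 on replicates 2 and 3. DESeq2 with the block and pair 1 left out called 33 of them. Of these, 28 were higher (32.2% of the 87, against 9.24% of all genes) and 5 lower (5.75% of the 87). Limma with a library left out gave 0 to 1 of the 87 (Lgals9, without control 1). DESeq2 with the block also passed Jag1. By limma and edgeR the block changed no call. The median difference of the 31 was 0.26 without control 2 and 1.66 without control 1, the ends of the range with a library left out, and -0.0819 by DESeq2 with the block and pair 2 left out. That last setting also turned Zbp1 (-0.55), Ifit1 (-0.37), Ifit2 (-0.87), Ifit3 (-0.66), Ifit3b (-1.01), Mx1 (-0.20), Mx2 (-0.23), Cmpk2 (-0.46), Bst2 (-0.26), Ifi44 (-0.879), Parp14 (-0.22), Rtp4 (-0.12), Isg15 (-0.0819), Usp18 (-0.34), Xaf1 (-0.34) and Adar (-0.0319). By edgeR and by DESeq2 without the block, Ifit1 was -0.28 and -0.26, Ifit2 -0.71 and -0.69, Ifit3 -0.71 and -0.68, Ifit3b -0.69 and -0.66, Cmpk2 -0.22 and -0.20 and Ifi44 -0.15 and -0.14, and Ifit2 was -0.0522 by edgeR with the block. Spike-in scaling turned Bst2 (-0.0879) and Ifngr1 (-0.13). On replicates 2 and 3 Irf9 was 0.14 and Ifngr1 -0.0335 by limma, and 0.14 and -0.0335 by DESeq2 with the block, while Irf2bp1 was 0.033 by DESeq2 with the block and pair 3 left out. With each library left out in turn, Irf9 ran from -0.39 to 0.024, Zbp1 from -0.23 to 1.49, Ifit1 from -0.27 to 2.10, Ifit2 from -0.842 to 1.52, Ifit3 from -0.25 to 2.45, Ifit3b from -0.63 to 1.58, Cmpk2 from -0.23 to 1.66, Bst2 from -0.12 to 0.33, Ifi44 from -0.54 to 1.27, Ifngr1 from -0.10 to 0.18, Tyk2 from -0.00208 to 0.49 and Irf2bp1 from -0.18 to 0.0817. The cause was not tested. A filter at 50 left 26 of the 31 genes to test and none called. Depth limits Ifne, whose 3 controls hold 4 or 5 reads each, and Ifit2, Ifit3, Ifit3b, Mx1 and Ifi27l2a in controls 2 and 3.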
